A study of Mus musculus with 10 samples.

Results

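Ubiquitin-conjugating enzymes (E2) were followed at the transcript level in germ cells of GRTH knock-in (KI) and wild-type (WT) mice. The members are the genes of the deposited table whose symbol begins with Ube2, together with Cdc34, a ubiquitin E2 that has another name. Ube2a and Ube2b were left out. This gave 36 of the 15507 genes of the table, and all 36 were among the 15389 genes with enough reads to be tested. The choice rested on gene names and no measured value entered the rule, but it was made with earlier results of these data known. By name the set also took in Ube2cbp, which codes for a ubiquitin ligase (its synonym is Ube3d) and not for an E2, and Ube2d-ps, annotated as a transcribed pseudogene. Cdc34b, Ube2d4 and Ube2ql1, which belong to the same families, were not analysed here.

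The study took testes of 5 WT and 5 homozygous KI mice at an age of 45 days, freed the germ cells by enzyme digestion, and made 1 poly(A) RNA library per mouse. GRTH (Ddx25) is a testis RNA helicase, and KI mice have a human GRTH gene bearing R242H, a missense mutation, so that the human sequence and the mutation cannot be told apart in this comparison. The dispersed fraction was filtered and not sorted, so that it held spermatogonia, spermatocytes and spermatids together. Transcripts of cells outside the germ line were also read. The Leydig cell marker Insl3, for example, had 6904 ± 1685 normalized counts in WT and 12289 ± 3367 in KI (SD, 5 libraries each). Reads on the mouse Ddx25 gene were 5198 to 11101 normalized counts in WT and 146 to 194 in KI 1 to 3 but 2.88 and 1.84 in KI 4 and 5, with every KI library below every WT library. The strain was not given in the sources used here.

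Ubiquitin is attached to proteins in a relay: an E1 enzyme activates it, an E2 carries it on its active-site cysteine, and an E3 ligase brings the loaded E2 to the substrate. The E2 largely sets what is built: some place the first ubiquitin, some extend chains through lysine 48 that mark proteins for the proteasome, some build lysine 63 chains used in signalling and DNA repair, and a few carry relatives of ubiquitin such as NEDD8 or ISG15. In the testis this system is known for its work when histones give way to protamines and when cytoplasm and organelles are removed from elongating spermatids.

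The deposited values are normalized counts, that is, reads per gene divided by a size factor for each library. Libraries held 12722086 to 16422347 reads on genes, of which the 36 E2 genes took 0.320% to 0.374%. Fold changes are log2 differences of normalized count + 1, KI against WT, from limma fitted over all genes tested, with Benjamini-Hochberg adjusted p-values (n = 5 mice per genotype). Calls required both an adjusted p under 0.05 and a difference of 1.5-fold or more in either direction. Libraries 1 to 3 of both genotypes lay apart from libraries 4 and 5 on the second principal component (9.75% of the variance of the 500 most variable genes). They also lay apart on the first (74.1%), which separated the genotypes. There WT 1 to 3 were at −26.9 to −25.9, WT 4 and 5 at −17.4 and −16.6, KI 1 to 3 at 18.7 to 19.3, and KI 4 and 5 at 25.1 and 31.6. Values within each of these sets (called the first and the second library set) are therefore given beside the called genes. The paper states that round spermatids of KI mice do not elongate, and that elongating spermatids and sperm are absent. WT libraries can thus hold RNA of a stage that KI mice lack. In such mixed cells, fewer cells of a type and less RNA per cell cannot be told apart from these values. The part of the missing stage in the changes given here was not tested.

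On the authors' scaling the E2 genes did not move one way as a family, and the members that moved were spread over several roles. Of the 36 members 8 (22.2%) were called, against 14.4% of all genes tested. Of these 5 (13.9% of the members) were lower in KI, with 8.22% of all genes called lower, and 3 (8.33%) were higher, with 6.13% called higher. By adjusted p alone 13 members (36.1%) passed, 10 of them lower and 3 higher, against 22.9% of all genes, and 14 had an unadjusted p under 0.05. For 9 members the genotypes had no overlapping libraries (7 lower and 2 higher in KI), which is 25% of the members, against 17.7% of all genes. Whether these shares differ from those of all genes was not tested. The median log2 fold change of the members was 0.01 and that of all genes tested 0.03, with 17 members below 0 and 19 above. These balances depended on the scaling. With libraries scaled to their total reads, which moved the median of all genes tested to 0.25 and that of the members to 0.24, 11 members were below 0 and 25 above, and 20 passed by adjusted p, 4 of them lower and 16 higher. The edgeR quasi-likelihood test and DESeq2 on the recovered reads each called the same 8 members.

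**Figure D1:**
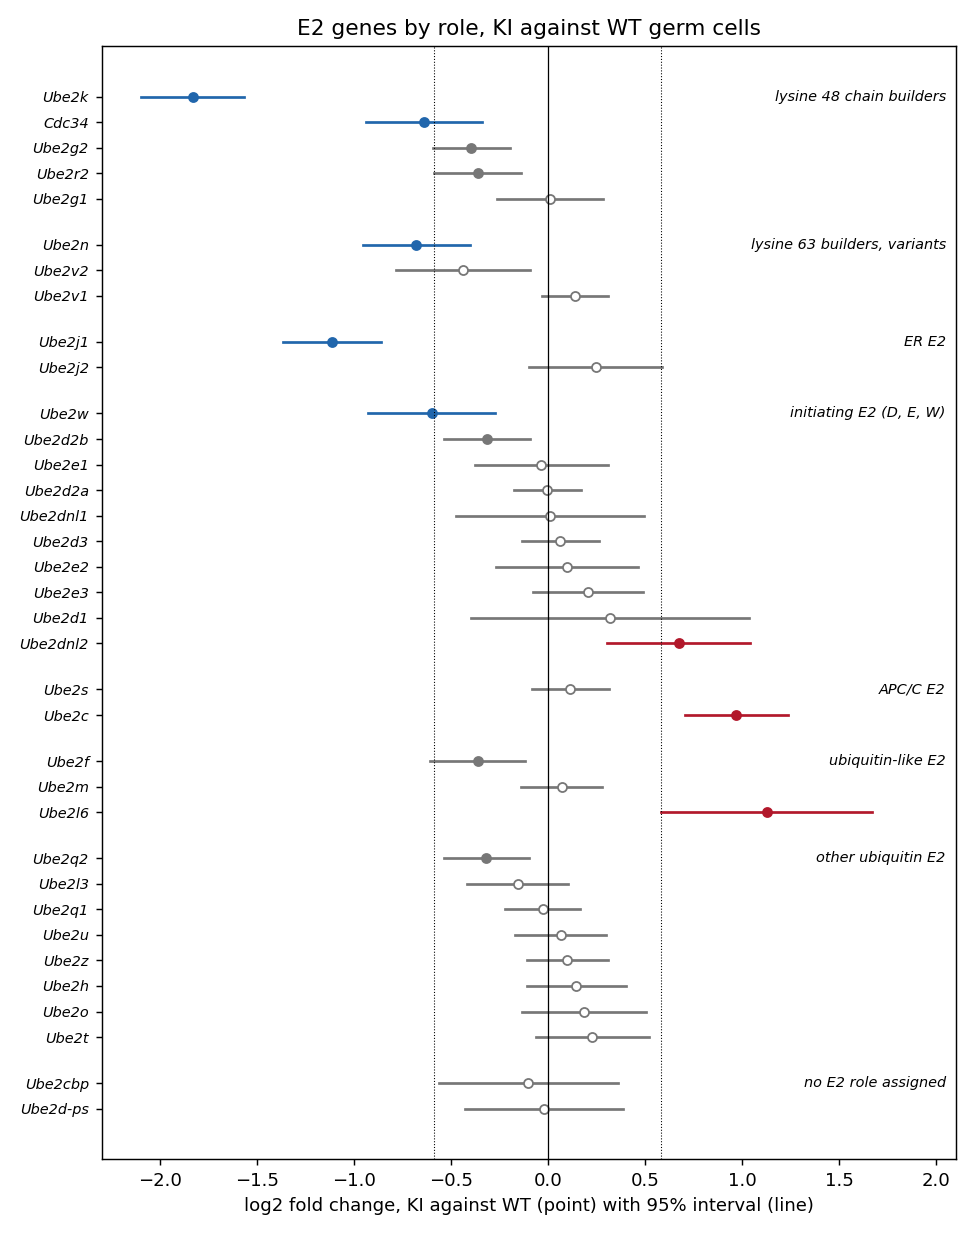
Log2 fold change of 35 of the 36 E2 genes, KI against WT (horizontal axis), with its 95% interval from limma, grouped by role. Filled points have an adjusted p under 0.05, blue and red mark genes called lower and higher, and dotted lines mark a 1.5-fold change. The 5 genes called lower reach from −0.60 (Ube2w) to −1.83 (Ube2k), and the 3 called higher from 0.67 (Ube2dnl2) to 1.13 (Ube2l6).

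The lysine 48 chain builders held the largest fall of the family. Of these 5 genes, 2 were called lower and none higher, where 8.22% of all genes tested were called lower. By adjusted p 4 passed, all lower, against 22.9% of all genes, and the median log2 fold change was −0.39. With libraries scaled to their total reads, Ube2k (−1.60) and Cdc34 (−0.41, under 1.5-fold) still passed by adjusted p. Ube2g2 (−0.17, limma adjusted p = 0.174) and Ube2r2 (−0.13, adjusted p = 0.308) then did not. Ube2k (chromosome 5, 65537245 to 65598989, + strand, mm10), which makes lysine 48 chains without needing a ligase to set the linkage, had 2918, 3234, 3081, 2041 and 2388 normalized counts in WT 1 to 5. In KI 1 to 5 it had 726, 719, 738, 889 and 722. Every KI library lay below every WT library, and 4 of the 5 KI libraries were nearly level while KI 4 lay above them. By limma the log2 difference was −1.83 (SE 0.12; adjusted p = 1.06e-07), and the mean normalized count fell by 72.2%. Within the library sets the values were −2.08 (1 to 3) and −1.46 (4 and 5).

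Cdc34 (chromosome 10, 79682195 to 79688398, + strand), the E2 that works with cullin-RING ligases, had 3803, 4065, 5086, 3568 and 3206 normalized counts in WT 1 to 5. The KI libraries 1 to 5 had 2297, 2897, 2897, 2730 and 1881. The genotypes did not overlap, and WT 3 was the highest and KI 5 the lowest of the 10 libraries. On the log2 scale the genotypes differed by −0.64 (SE 0.14; limma adjusted p = 0.00381). Without WT 3 it was −0.54 and without KI 5 −0.53, both under 1.5-fold with an adjusted p under 0.05. Within the library sets it was −0.68 (1 to 3) and −0.58 (4 and 5, adjusted p = 0.0529). Transcripts of Cdc34b, a copy of Cdc34 that is not among the genes of the table, match it at 92.3% over 1222 bases, so that reads of both may be counted together.

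The close relative Ube2r2, which serves the same ligases, was lower by less, at −0.36 (limma adjusted p = 0.0203, and over 0.05 in 6 of 23 alternative settings). Ube2g2, an E2 of endoplasmic reticulum degradation, was at −0.39 (adjusted p = 0.00637), with 659 to 731 normalized counts in WT and 457 to 573 in KI and so no overlap. Both were under 1.5-fold and neither was called. Ube2g1, by sequence the relative of Ube2g2, had 303 ± 37.2 normalized counts in WT and 306 ± 49.0 in KI (SD, n = 5 each; log2 fold change 0.01, 95% interval −0.26 to 0.29). Per kilobase of exon, the level of Ube2k was 5.94 to 9.69 times that of Ube2g1 in WT libraries and 1.62 to 2.87 times in KI libraries. The same ratio of Cdc34 to Ube2r2 overlapped between genotypes, at 16.0 to 21.4 in WT and 12.1 to 17.9 in KI.

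The 2 membrane-anchored E2 enzymes of the endoplasmic reticulum, which feed misfolded proteins to the proteasome, parted from each other. Ube2j1 had 7147, 8000, 8220, 5571 and 5850 normalized counts in WT 1 to 5. In KI 1 to 5 it had 3200, 3291, 3282, 3423 and 2757. The KI libraries lay close together and all below the WT libraries, among which libraries 4 and 5 were the lower. The log2 fold change was −1.11 (SE 0.12, limma adjusted p = 8.15e-06), with −1.25 in the first library set and −0.89 in the second. Ube2j2 had 489, 511, 575, 857 and 708 normalized counts in WT 1 to 5 and 571, 710, 766, 954 and 691 in KI 1 to 5. These ranges overlapped (log2 fold change 0.25, 95% interval −0.10 to 0.59, limma adjusted p = 0.303). With the library number as a block its adjusted p was 0.0457, still under 1.5-fold. Per kilobase of exon, Ube2j1 stood at 6.64 to 16.0 times the level of Ube2j2 in WT libraries (median 14.6) and at 3.66 to 5.72 times in KI libraries (median 4.37). Ube2j2 matches Gm5801, which is among the genes of the table, at 99.2% over 780 bases, so that reads of both may be mixed.

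The stretches upstream of the start sites of these 2 genes are shown because the enzymes share a pathway and Ube2j1 alone was called, and that of Ube2k because it fell most; they are the 150 bases before the RefSeq start site in GRCm38.p6 (mm10), 5′ to 3′ on the gene's strand. Capitals mark TGACG on either strand (CGTCA on the other), the core of the cAMP response element bound by factors such as CREM, which is active in spermatids. The Ube2j1 stretch lies at chr4:33031230-33031379 (+ strand), that of Ube2j2 at chr4:155943663-155943812 (+ strand) and that of Ube2k at chr5:65537095-65537244 (+ strand).
Ube2j1: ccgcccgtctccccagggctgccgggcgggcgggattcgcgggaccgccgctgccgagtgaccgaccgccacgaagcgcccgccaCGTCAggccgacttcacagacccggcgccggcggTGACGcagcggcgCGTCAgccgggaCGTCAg
Ube2j2: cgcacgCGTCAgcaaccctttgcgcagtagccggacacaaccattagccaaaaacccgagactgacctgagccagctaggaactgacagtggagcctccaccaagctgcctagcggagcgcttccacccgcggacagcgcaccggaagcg
Ube2k: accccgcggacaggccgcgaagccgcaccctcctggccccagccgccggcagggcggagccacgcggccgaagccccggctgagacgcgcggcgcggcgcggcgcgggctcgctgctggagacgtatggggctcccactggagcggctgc

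Ube2j1 holds 4 TGACG cores within the last 65 bases before its start, Ube2j2 holds 1 at 144 bases before its start, and Ube2k holds none in its window of 300 bases (250 before to 50 after the start). Over the 27025 gene windows of RefSeq, 20.9% hold at least 1 core and 0.244% hold 4 or more, and at least 1 is held by 29.5% of the 12216 windows that belong to genes measured here. Of the 29 members with a window 7 hold at least 1 core (Ube2d2b, Ube2h, Ube2j1, Ube2j2, Ube2n, Ube2s and Ube2v1), and Ube2h holds the full element TGACGTCA, which 1.85% of all windows hold and which contains the core. Among these 7 genes, Ube2j1 and Ube2n were called lower. These letters are a description of the windows and do not show a factor at work.

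Of the E2 unit that builds lysine 63 chains, the catalytic gene was called and its inactive partners were not. Ube2n (chromosome 10, 95515162 to 95545658, + strand), the catalytic subunit, had 3417, 3645, 3547, 2613 and 2396 normalized counts in WT 1 to 5. The KI libraries 1 to 5 had 2133, 2039, 2024, 1896 and 1580. The genotypes did not overlap, and libraries 4 and 5 were the lowest of both. By limma the log2 difference was −0.68 (SE 0.13; adjusted p = 0.0013), with −0.78 in the first library set and −0.53 in the second. It was −0.45 with libraries scaled to their total reads and −0.58 with upper-quartile scaling, both under 1.5-fold. Transcripts of 7 other genes match Ube2n at 90% or more over at least 150 bases, among them Ube2n-ps1 at 100% over 459 bases, and none of the 7 is among the genes of the table.

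Ube2v1, a catalytically inactive variant that pairs with Ube2n, had 1056 ± 59.6 normalized counts in WT and 1162 ± 56.9 in KI (SD, n = 5 each; log2 fold change 0.14, limma adjusted p = 0.241). Its exons overlap those of Gm20431 and Gm11476, so that its reads are not its own for certain. Ube2v2, the other variant, was at −0.44 (adjusted p = 0.0662), and at an adjusted p of 0.0101 with the library number as a block, under 1.5-fold in both. Per kilobase of exon, Ube2n stood at 1.22 to 1.85 times the level of Ube2v1 in WT libraries and at 0.75 to 1.10 times in KI libraries.

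**Figure D2:**
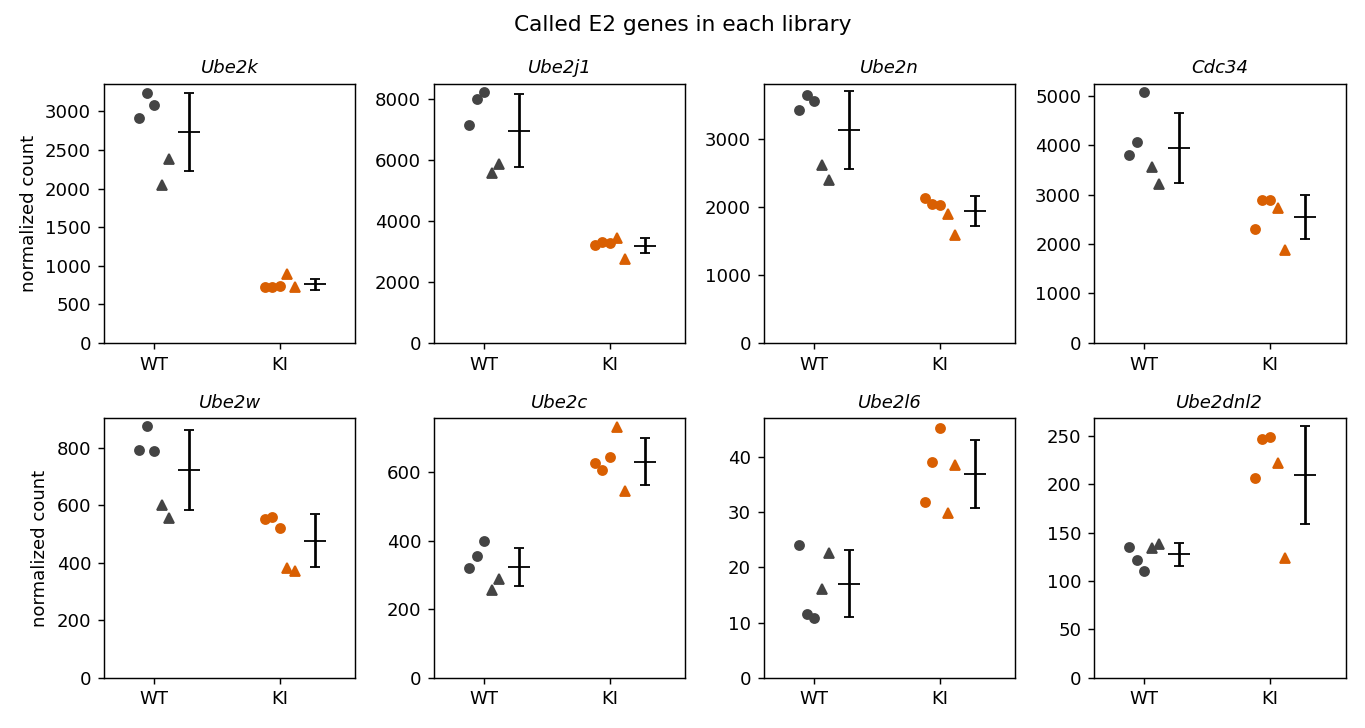
Normalized count in each library (points; vertical axes start at 0) of the 8 called E2 genes, with the mean and SD of 5 libraries beside each genotype. Circles are libraries 1 to 3 and triangles libraries 4 and 5. KI and WT libraries do not overlap for Ube2k, Ube2j1, Ube2n, Cdc34, Ube2c and Ube2l6, and overlap for Ube2w and Ube2dnl2.

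The 10 initiating E2 genes, promiscuous enzymes that place the first ubiquitin for many ligases, were mostly near 0 with a median log2 fold change of 0.04, and 1 was called in each direction. Ube2w (chromosome 1, 16540788 to 16619291, − strand), which attaches ubiquitin to the amino terminus of proteins, had 792, 876, 790, 599 and 554 normalized counts in WT 1 to 5. In KI 1 to 5 it had 552, 557, 521, 382 and 371. KI 2 lay just above WT 5, and within each library set every KI library was below every WT library. On the log2 scale the genotypes differed by −0.60 (SE 0.15; limma adjusted p = 0.0106), with −0.59 and −0.61 in the first and the second library set. The fold was close to the threshold: without any one of WT 1, WT 2, WT 3, KI 4 or KI 5 it was −0.52 to −0.56, under 1.5-fold, with an adjusted p of 0.0212 to 0.0331. With libraries scaled to their total reads it was −0.37 and did not pass (limma adjusted p = 0.0812). The exons of Ube2w share 253 bases with Gm38342 on the other strand and the sources do not say whether reads were counted by strand.

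Ube2dnl2 (chromosome X, 114907582 to 114908510, + strand), a UBE2D-like gene that lies next to its relative Ube2dnl1, had 135, 121, 110, 134 and 138 normalized counts in WT 1 to 5. The KI libraries 1 to 5 had 207, 247, 249, 222 and 124. KI 5 fell among the WT libraries and the other 4 KI libraries lay above them all. The log2 fold change was 0.67 (SE 0.17, limma adjusted p = 0.0102), with 0.94 in the first library set and 0.28 in the second (adjusted p = 0.553). Its neighbour Ube2dnl1 had 124 ± 24.4 normalized counts in WT and 129 ± 39.1 in KI (SD, n = 5 each; log2 fold change 0.01). The ratio of Ube2dnl2 to Ube2dnl1 per kilobase overlapped, at 0.827 to 1.52 in WT libraries and 1.29 to 1.90 in KI libraries. Ube2dnl1 was also lowest in KI 5, at 65.3, against 117 to 161 in the other KI libraries.

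Of the UBE2D enzymes proper, Ube2d2b was at −0.32 (limma adjusted p = 0.0394), under 1.5-fold. It had 5996 to 7040 normalized counts in WT and 4639 to 6451 in KI, which overlapped, and its adjusted p was over 0.05 in 10 of 23 alternative settings. Its transcript matches Ube2d2a at 90.3% over 352 bases, so that reads of the 2 may be mixed. Ube2d2a itself had 2116 ± 81.7 in WT and 2115 ± 162 in KI (SD, n = 5 each), the most even member across WT mice with a coefficient of variation of 3.86%. Ube2d3, with 3405 ± 172 and 3578 ± 446, and Ube2e1, Ube2e2 and Ube2e3, at log2 fold changes of −0.03, 0.10 and 0.21, did not pass the test.

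The 2 E2 enzymes of the anaphase-promoting complex, the ligase that drives exit from cell division, also parted. Ube2c (chromosome 2, 164769929 to 164772902, + strand), which places the first ubiquitin for the complex, had 319, 354, 400, 257 and 288 normalized counts in WT 1 to 5. In KI 1 to 5 it had 626, 605, 645, 733 and 544. Every KI library lay above every WT library. By limma the log2 difference was 0.97 (SE 0.12; adjusted p = 4.56e-05), with 0.81 in the first library set and 1.21 in the second. Transcripts of Gm8956 match it at 93.8% over 483 bases.

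Ube2s, which extends lysine 11 chains on the same complex, had 6979, 7057, 7103, 7710 and 6602 normalized counts in WT 1 to 5 and 7158, 7909, 7864, 8836 and 6766 in KI 1 to 5. The ranges overlapped and the test was not passed (log2 fold change 0.12, 95% interval −0.08 to 0.32, limma adjusted p = 0.421). Per kilobase of exon, the level of Ube2c was 0.0159 to 0.0268 of that of Ube2s in WT libraries and 0.0364 to 0.0416 in KI libraries. The complex itself gave no called gene among its 16 subunits and activators with limma, edgeR or DESeq2. By limma 5 had an unadjusted p under 0.05 and 1, lower and under 1.5-fold, an adjusted p under 0.05. For 2 every KI library lay below every WT library.

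The 150 bases before the start site of Ube2c are shown because the gene rose and Ube2s, with which it works, did not pass the test, and because it holds elements known from promoters of cell division genes. They lie at chr2:164769779-164769928 (+ strand, GRCm38.p6, from RefSeq), and capitals mark the CCAAT box (here as ATTGG, its other strand) and the CHR element TTTGAA (here as TTCAAA, its other strand).
Ube2c: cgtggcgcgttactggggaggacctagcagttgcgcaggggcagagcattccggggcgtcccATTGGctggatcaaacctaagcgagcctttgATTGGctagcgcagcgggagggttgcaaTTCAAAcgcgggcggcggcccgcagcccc

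The whole window of 300 bases holds 6 CCAAT boxes on either strand, at 57 and 88 bases before the start for the pair shown, and 1 CHR element at 29 bases before it. At least 2 CCAAT boxes together with a CHR element stand in 2.18% of all RefSeq windows, and among the members in those of Ube2c and Ube2f. Ube2f was lower in KI at −0.36. CCAAT alone is found in 38.0% of all windows and TTTGAA in 18.2%.

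Of the 4 E2 genes of ubiquitin-like modifiers, 1 was called. Ube2l6, the E2 of the interferon-induced modifier ISG15, was the least abundant member per kilobase in WT and rested on few reads, 9 to 45 per library. It had 24.1, 11.6, 10.9, 16.0 and 22.6 normalized counts in WT 1 to 5 and 31.9, 39.1, 45.3, 29.8 and 38.6 in KI 1 to 5. No KI library was as low as the highest WT library. The difference amounted to a log2 fold change of 1.13 (SE 0.25, 95% interval 0.58 to 1.67, limma adjusted p = 0.00455), with 1.34 in the first library set and 0.80 in the second (adjusted p = 0.225). Its transcripts hold stretches shared with 10 other genes at 90% or more. Searched by name, the interferon-stimulated response element was not found in its window of 300 bases and was found in 3.49% of all windows.

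The NEDD8 pathway has a pair of E2 enzymes. Ube2f, which loads NEDD8 for the cullin CUL5, had 733 to 921 normalized counts in WT and 474 to 717 in KI (log2 fold change −0.36, limma adjusted p = 0.0331), under 1.5-fold and without overlap, and its adjusted p was over 0.05 in 9 of 23 alternative settings. Ube2m, which serves the other cullins, had 3070 ± 209 in WT and 3236 ± 395 in KI (SD, n = 5 each; log2 fold change 0.07, 95% interval −0.14 to 0.28).

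Of the other 8 ubiquitin E2 genes 1 had an adjusted p under 0.05. Ube2q2, a less studied E2, had 895, 1061, 787, 854 and 864 normalized counts in WT 1 to 5 and 775, 606, 683, 768 and 743 in KI 1 to 5. WT 3 and KI 1 nearly met but the genotypes did not overlap. The log2 fold change was −0.32 (SE 0.10, limma adjusted p = 0.0362), under 1.5-fold, and its adjusted p was over 0.05 in 8 of 23 alternative settings. Ube2t, the E2 of the Fanconi anaemia repair pathway, was at 0.23, Ube2o, a large E2 that also acts as its own ligase, at 0.18 and Ube2h, a partner of the CTLH ligase, at 0.15, none past the test. Ube2u had 1317 ± 191 normalized counts in WT and 1372 ± 119 in KI (SD, n = 5 each), and Ube2l3, which works with HECT and RBR ligases, Ube2q1 and Ube2z, which takes its ubiquitin from Uba6, were at −0.16, −0.03 and 0.10.

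On the authors' scaling, the interval bounded the change for most members that missed the threshold. Of the 23 members with an adjusted p over 0.05, whose log2 fold changes ran from −0.44 (Ube2v2) to 0.32 (Ube2d1), 20 had a 95% interval within 1.5-fold either way. The intervals of Ube2d1, Ube2j2 and Ube2v2 reached past it. These intervals do not cover the choice of scaling. With libraries scaled to their total reads 20 of all members passed by adjusted p, 16 of them higher. Among these was Ube2s, at 0.35 (limma adjusted p = 0.00591). Ube2d1 was the most variable member across WT mice, with 19.8 to 84.5 normalized counts and a coefficient of variation of 63.4%, against a median of 14.5% in WT and 14.4% in KI over the members.

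**Figure D3:**
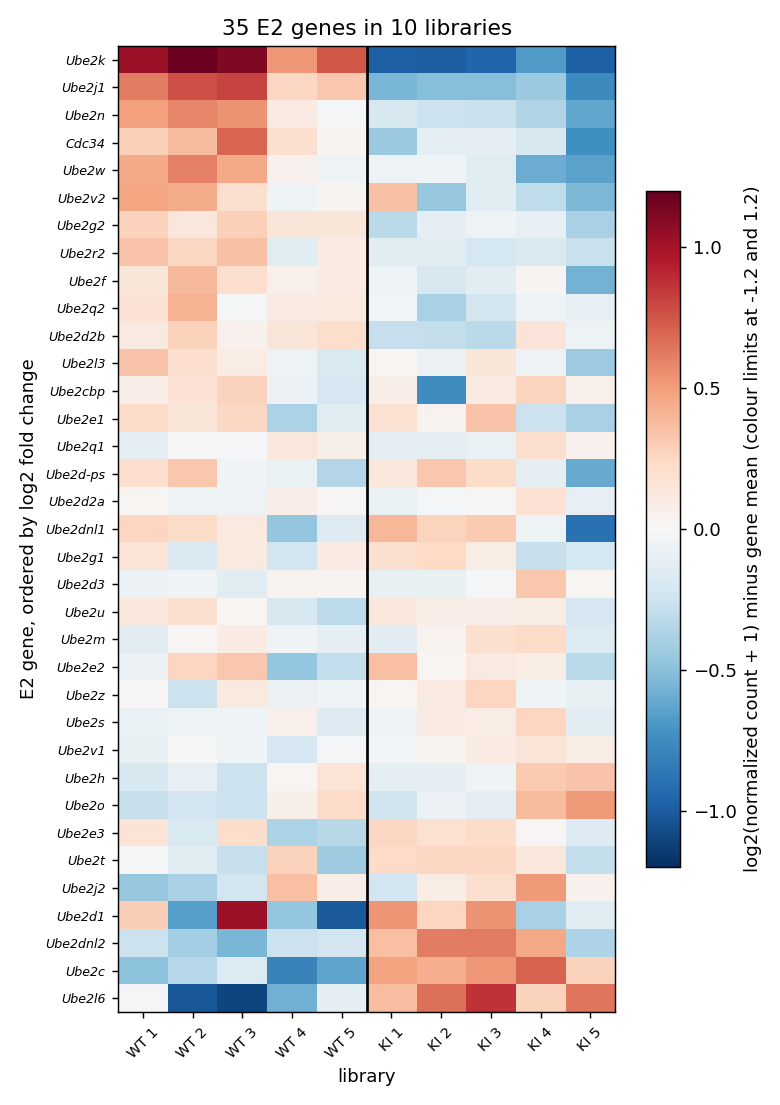
Log2(normalized count + 1) of 35 of the 36 E2 genes in the 10 libraries, each gene centred on its own mean and ordered by its log2 fold change, with colours limited at −1.2 and 1.2. The top 4 genes (Ube2k, Ube2j1, Ube2n and Cdc34) and the lowest 2 (Ube2c and Ube2l6) separate the genotypes in every library, and most genes between them do not.

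Levels between genes were compared per kilobase of exon. In WT the level of Ube2s, the highest, was 525 times that of Ube2l6, the lowest. Of the summed level of the 36 genes, Ube2s made up 22.3% in WT and 26.9% in KI, Ube2d2b 15.0% and 13.6%, Ube2j1 7.61% and 3.92%, and Ube2m 7.48% and 8.79%. Ube2k went from rank 11 of 36 in WT to rank 26 in KI, and Ube2c from rank 29 to rank 18, while Ube2s and Ube2d2b kept the first 2 ranks. The sum was 25772 ± 1305 normalized counts per kilobase in WT and 23085 ± 1914 in KI (SD, n = 5 each), or 89.6%, and KI 4 lay within the WT range of 23929 to 27092. Its direction depended on the scaling: with libraries scaled to their total reads, the KI sum was 105% of that of WT.

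**Figure D4:**
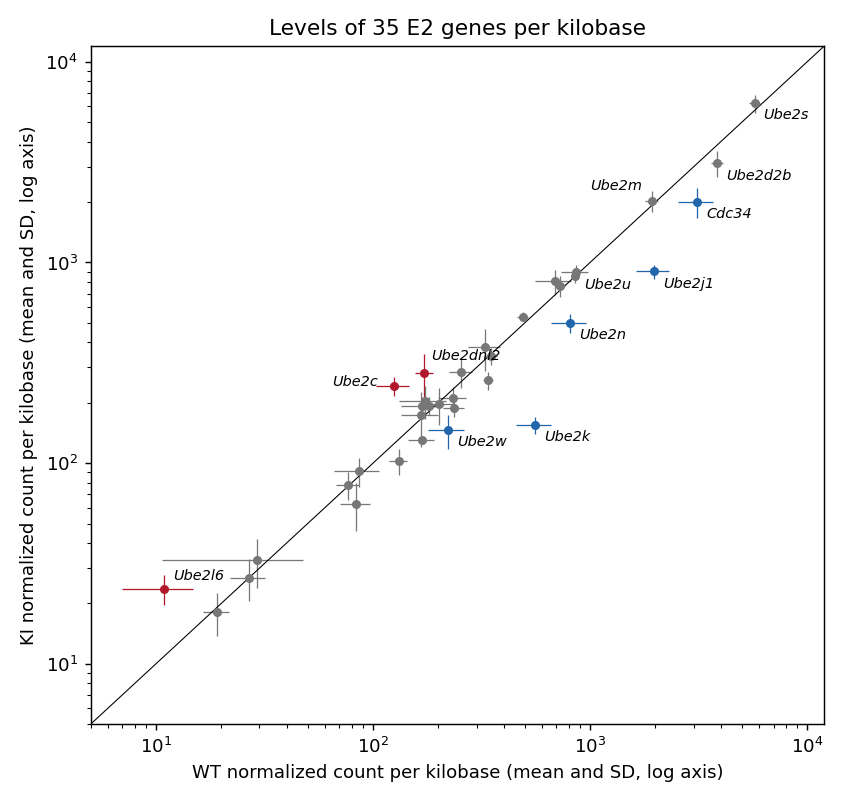
Level of 35 of the 36 E2 genes in WT (horizontal) and KI (vertical), in normalized counts per kilobase of exon on log axes, as mean and SD of 5 libraries. The line marks equal levels, blue and red mark genes called lower and higher. Ube2k and Ube2j1 lie furthest below the line and Ube2c and Ube2l6 furthest above it, and Ube2s and Ube2d2b are the most abundant.

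Of the 13 members with an adjusted p under 0.05 over all libraries, each had a log2 fold change of the same sign in the first and in the second library set. As these 13 were chosen by a fit over both sets, equal signs were favoured in advance and do not count as replication. By adjusted p 5 members passed in libraries 4 and 5 alone. Over all members 26 of 36 had the same sign in both sets. In libraries 1 to 3 alone the same 8 members were called, and in libraries 4 and 5 alone 4 of them (Ube2j1, Ube2k, Ube2w and Ube2c). Ube2k, Ube2j1, Ube2n and Ube2c had an adjusted p under 0.05 in each of 23 alternative settings, but Ube2n was under 1.5-fold, and so not called, with library totals, with the upper quartile and in the second library set.

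**Figure D5:**
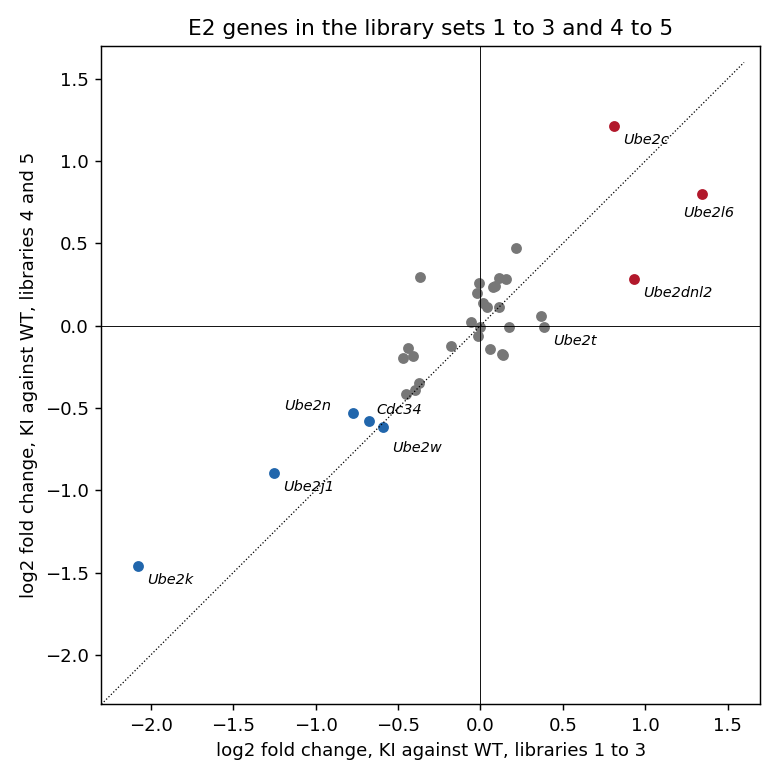
Log2 fold change of 35 of the 36 E2 genes, KI against WT, in libraries 1 to 3 (horizontal) and in libraries 4 and 5 (vertical). The dotted line marks equal values, blue and red mark genes called lower and higher over all libraries. All 8 called genes keep their side of 0 in both sets, Ube2k, for example, at −2.08 and −1.46. The calls were made over both sets together, which favours this.

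The genes around the E2 enzymes were taken from 7 lists of E1 enzymes, modifiers, ligases and helpers, 82 tested genes in all. Of these, 8 (9.76%) were called, 7 lower and 1 higher, against 14.4% of all genes tested. The 7 E1 enzymes, the step before the E2, gave 0 called genes with limma, edgeR or DESeq2, and 0 had an unadjusted p under 0.05. Uba1, the main ubiquitin E1, was at −0.06.

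On the ligase side, Rnf139, a ligase of the endoplasmic reticulum membrane, had 11166 ± 1203 normalized counts in WT and 4689 ± 286 in KI (SD, n = 5 each; log2 fold change −1.25, limma adjusted p = 3.23e-07). It was the 1 called gene of the 13 in its list, where Ube2j1 and Ube2g2 also act. By adjusted p alone 4 of the 13 passed, all lower, and for 4 every KI library lay below every WT library. Syvn1 and March6, other ligases of this membrane, were at −0.17 and 0.06 and did not pass. Of 24 RING partners, Rnf133, a testis ligase of the endoplasmic reticulum, was at −1.66, Rnf138, a ligase of DNA repair, at −1.48 and Birc3, an inhibitor of cell death, at 0.77 (adjusted p = 0.0202), and these 3 were called. Rnf8, the ligase that works with Ube2n at DNA breaks and in spermatids, was at 0.11 (adjusted p = 0.603).

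Of 7 helpers of the E2 step 2 were called, both lower, and the median log2 fold change was −0.33. By adjusted p alone 4 of the 7 passed, all lower, and for 4 every KI library lay below every WT library. Dcun1d1, which helps the NEDD8 E2 enzymes load cullins, had 3187 ± 954 normalized counts in WT and 896 ± 172 in KI (SD, n = 5 each; log2 fold change −1.79, limma adjusted p = 9.34e-06). Otub2, a deubiquitinase, was at −1.16 (adjusted p = 5.72e-05), and its relative Otub1, which binds Ube2n and blocks it, at 0.28 (adjusted p = 0.0854). Among E2-fold proteins outside the family, Aktip, a protein that links to Hook adaptors, was at −1.10 (adjusted p = 6.35e-07), and Tsg101, of the membrane-sorting machinery, at 0.09.

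Marker transcripts of germ cell stages differed by genotype in the same libraries. All 8 markers of elongating spermatids (protamines, transition proteins and tail proteins) were called lower, with a median log2 fold change of −2.53, and their summed normalized counts were 240478 to 430703 in WT and 34713 to 69610 in KI. Of 8 round spermatid markers 1 (Crem) was called lower, with a median of −0.45 and sums of 20638 to 24062 in WT and 12638 to 18924 in KI. By adjusted p alone 4 of the 8 passed, all lower, and for 4 every KI library lay below every WT library. Of 9 spermatocyte markers none was called by limma, 1 passed by adjusted p alone (lower) and 2 had an unadjusted p under 0.05. Their median was 0.01, with overlapping sums of 19951 to 27333 and 19811 to 23824. The part of these markers in the changes of the E2 genes was not tested.

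Markers of cells outside the germ line are given beside Ube2c, Ube2l6 and Ube2dnl2. Of 7 Leydig cell markers 4 were called higher (median 0.69), with sums of 10875 to 19504 in WT and 15729 to 27046 in KI. Of 9 macrophage markers 5 were called higher and 1, Aif1, lower (median 0.59). Aif1 made up most of their sum, which was 3263 to 4336 in WT and 2386 to 2766 in KI. Of 4 tested markers of peritubular myoid cells 2 were called higher, with overlapping sums of 120 to 208 in WT and 191 to 236 in KI. The 2 that were not called lay below 0, at −0.30 and −0.23, and the median was 0.27. No marker of spermatogonia (7 tested) or Sertoli cells (8 tested) was called by limma, and 2 and 1 had an unadjusted p under 0.05. By adjusted p alone 1 spermatogonia marker passed, lower, and 1 Sertoli cell marker, higher. The part of all these markers in the rise of the 3 genes was not tested.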

How the data were processed

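RNA of germ cells from 5 WT and 5 KI mice was measured as 1 library per mouse. The authors removed adapters, used STAR for alignment to mm10 and the Partek E/M model with the RefSeq_v91 annotation for counting, scaled every library by a DESeq2 size factor, and deposited the resulting signal per gene (versions not given in the sources used here). Within a library, values were whole multiples of 1 read for 100% of values up to 5000 reads (tolerance 0.1 read), so that reads could be recovered.

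Because the deposited values are normalized, the main test was limma 3.58.1 with a trended variance (R 4.3.3), applied to log2 of value + 1, on genes passing filterByExpr of edgeR 4.0.16, with Benjamini-Hochberg adjustment over the 15389 genes tested. The edgeR quasi-likelihood test and DESeq2 1.42.0 on recovered reads were alternatives, beside other scalings, pseudocounts, filters, thresholds, library sets and leaving out each library. Scripts were tested on simulated data. The members and lists were chosen with earlier results of these data known. Values per library are given for called members and for members the study names, fold changes for the others past the adjusted p, and ranges for the rest; gene lists are given by their called genes. Values given for Ube2j2, Ube2s and other members past no threshold, and for list genes that were not called other than Rnf8, were chosen after they were seen, to set relatives side by side.

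Libraries of the same number deviated together from their genotype means (r = 0.306, 0.105, 0.280, 0.216 and 0.462). By r, the closest library of the other genotype mostly had the same number. The exceptions were WT 3, closest to KI 2, and KI 2, closest to WT 3. The labels name no pairs, and whether the numbers pair the mice or follow the library sets was not tested. The main test had no block, and a fit with the number as a block was an alternative. No 2 libraries of a genotype were duplicates (chi-square per degree of freedom 2.67 to 46.4). With 12722086 to 16422347 reads on genes per library, intervals cover the spread between mice. Exon lengths and gene types came from GENCODE vM21, near copies from blastn 2.17.0 on its transcripts, and promoter windows from RefSeq, found for 29 of 36 members. Ube2a and Ube2b, 1 further member and some list genes are not reported here by name; that member and those genes are in the counts, and the figures show the other 35 members.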

Additional observations from a re-analysis of the deposited data

Results flagged for a closer look

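Within each genotype, every member was examined for 1 library that stood apart from the other 4, by its gap to the nearest library over the whole range (limit 0.71 for 5 libraries). Of 72 groups of 5 libraries 5 had such a library (6.94%), where chance gives about 1 in 20, and all 5 were KI libraries. Ube2k stood at 889 normalized counts in KI 4, against 719 to 738 in the other KI libraries. Ube2d3 was also high in KI 4, at 4350 against 3272 to 3541. In KI 5, Ube2t stood at 673 against 896 to 979, and Ube2u at 1161 against 1408 to 1457. Ube2cbp, a gene of few reads, stood at 19.1 in KI 2 against 34.0 to 39.4.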

How the results depend on the processing

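Of the 8 called E2 genes, 5 were called with scaling to library totals and 5 with upper-quartile scaling, 2 of them lower in each case, since Cdc34, Ube2n and Ube2w were then under 1.5-fold. With library totals Ube2w also missed the adjusted p threshold (limma adjusted p = 0.0812). Scaling to library totals moved the median log2 fold change of all genes to 0.25 and that of the E2 genes to 0.24 (0.10 with the upper quartile), and the summed level per kilobase in KI to 105% of WT. Libraries 4 and 5 alone gave 4 called genes, 3 lower and 1 higher. With no fold threshold 13 were called, 10 lower, and with a 2-fold threshold 3, of which 2 were lower and 1 higher. Leaving out 1 library at a time gave 3 to 5 genes called lower, with 3 when WT 3 or KI 5 was left out (Cdc34 and Ube2w lost). With the library number as a block (replicate block) the same 8 E2 genes were called and the partner count stayed at 8, while 15 in place of 13 members passed by adjusted p and 2410 in place of 2209 of all genes were called; marker lists were not run with the block. Among the partner genes 17 passed with no fold threshold, against 8. Requiring a mean of 100 normalized counts left Ube2l6 out of the test. Over 298 values under alternatives of the 13 genes that passed by adjusted p, a choice that leaves no gain to count, 259 stayed on their side of the adjusted p threshold, 39 no longer passed it and 0 changed direction. The cause of these shifts was not tested. Depth limits Ube2l6, with 9 reads in its lowest library.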
